A study of Mus musculus with 9 samples.

Results

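The comparison described here is that of livers given the compound 326E with livers given vehicle, both from mice on CDAA-HFD, a high-fat diet that lacks choline and supplies L-amino acids in place of protein, measured by poly(A) RNA sequencing. Every gene with at least 0.5 FPKM (fragments per kilobase of gene, scaled to the depth of the library) in at least 3 of the 6 libraries of these groups was included, which gave 13238 of the 54532 genes in the table, 11641 of them protein-coding. Of the 13238 genes, 11595 reached the minimum in all 6 libraries, 112 passed through vehicle libraries only and 70 through 326E libraries only. Genes of the 112 and the 70 entered only through the group in which they were higher, so their p-values carry that selection. They include Meg3, Rian and Cxcr2 for vehicle, and Mogat1, Ucp3, Slc39a5 and Mup6 for 326E. The pseudogene Gm18194 lay just inside the minimum, where the lowest of its 3 best libraries had 0.50028 FPKM, and the antisense gene Plxna4os1 just outside it, at 0.49907 FPKM. All mice were wild-type C57BL/6J males, and their age is not given in the sources used here. The 3 groups of 3 libraries were CDAA-HFD with vehicle, CDAA-HFD with 326E at 30 mg/kg over 6 weeks, and chow with vehicle. Chow values are given beside the others for orientation. The chow libraries also entered the fit, where they add to the estimate of spread behind every standard error and p-value. Sample titles start with MCD even for chow, an abbreviation that can stand for another diet, and the diets are named here as the protocol names them. Whether every library came from its own animal is not stated, so p-values measure only the spread between these samples, which may be technical.

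According to its title, the study concerns 326E as a compound that acts on ACLY (ATP citrate lyase) and on the nuclear receptor PPARα. ACLY splits cytosolic citrate into acetyl-CoA, the building block of fatty acids and cholesterol. PPARα binds fatty acids, pairs with RXR and switches on genes of fatty acid uptake, activation, omega-hydroxylation and oxidation in peroxisomes and mitochondria, and its response in rodent liver is known for peroxisome growth. A diet without choline hampers the export of triglyceride from the liver, and CDAA-HFD is used to produce steatosis, inflammation and fibrosis in mice.

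Library depth ranged from 13275888 to 17058316 reads in genes. Mitochondrial genes took 5.61 to 5.82% of the reads in vehicle and 5.99 to 7.31% in 326E libraries. Spearman correlations across genes were 0.956 to 0.965 among vehicle libraries, 0.967 to 0.976 among 326E libraries and 0.926 to 0.95 between them. On the first principal component of the 6 libraries, which held 54.4% of the variance, the scores of vehicle replicates 1 and 3 were -30.62 and -30.46, those of vehicle replicate 2 -16.08 and those of the 326E libraries 24.18 to 27.32. On the second component, with 17% of the variance, vehicle replicate 1 stood at 21.67 and replicates 2 and 3 at -17.8 and -7.71. Vehicle replicate 2 was thus the vehicle library nearest to 326E on the first component, while its correlation with replicate 3 (0.965) was as high as that between replicates 1 and 3. It differed from the other two in immediate early genes, the transcription factors and phosphatases whose transcription follows a stimulus at once. The median of 28 such genes, relative to each gene's mean over the 6 libraries on the log2(FPKM+1) scale, was 1.11 and 1.78 for vehicle replicates 1 and 3, -0.42 for vehicle replicate 2, and -0.96 to -0.69 for the 326E libraries. For each list below, the count obtained with vehicle replicate 2 as the only vehicle library is therefore given as well. In that fit the lone library is assumed to vary like the other groups, and fewer genes can pass. Where a gene with a printed difference lost its call there, the adjusted p of that fit follows in the same bracket or sentence, with the difference itself where it moved much.

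Of the 13238 genes, 1656 passed at an adjusted p under 0.05, which is 12.5% of those tested, with 712 higher in 326E livers (5.38%) and 944 lower (7.13%). The libraries of the groups did not overlap in 33.5% of the genes tested and in 1653 of the 1656 called genes. Some lists below were called at a share near the 12.5% of all genes, and their counts do not set them apart. This share was 8.7% for stellate cells, 10.3% for interferon-stimulated genes, 11.8% for the PPAR family and 13.3% for dendritic cells. It was 14.3% for Kupffer cells, neutrophils and carried-over tissue, 14.8% for methyl donor genes and 16.7% for xenobiotic genes. Fold changes are differences of log2(FPKM+1), given with their standard error after ±, and they understate the change of genes near or below 1 FPKM. On this scale 136 genes rose and 200 fell at least 2-fold, 39 rose and 28 fell at least 4-fold, and the median over all genes was -0.021. The median half-width of the 95% interval, which is not adjusted for the number of genes, was 0.3. At a typical standard error, a call at the adjusted threshold needed a change larger than that. The number of called genes was 1216 when vehicle replicate 1 was left out, 954 when vehicle replicate 3 was left out, 1040 when 326E replicate 1 was, 699 when replicate 2 was and 811 when replicate 3 was. It was 400, with 169 higher, when vehicle replicate 2 alone stood for vehicle. Of the 200 genes lower at least 2-fold, vehicle replicate 2 was the vehicle library nearest to 326E in 113, replicate 1 in 63 and replicate 3 in 24. Among the 136 genes higher at least 2-fold the same counts were 51, 50 and 35.

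**Figure D1:**
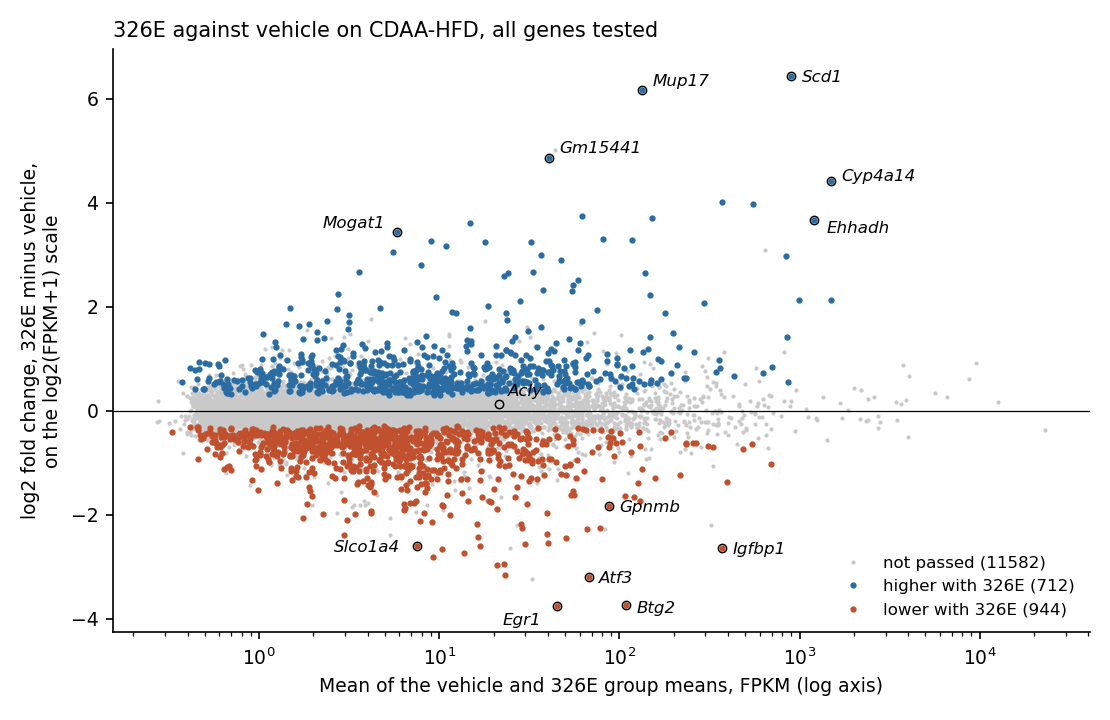
Each point is a gene tested, with the mean of the vehicle and 326E group means in FPKM on a log axis against the log2 fold change of 326E minus vehicle, and colours mark the 712 genes that passed as higher and the 944 that passed as lower. Scd1 and Mup17 lie above 6 on the vertical scale, Cyp4a14 at 4.41, and Egr1, Btg2 and Atf3 lie below -3.

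Genes of fatty acid omega-hydroxylation had the highest median of all lists. These enzymes oxidise the methyl end of fatty acids, and the Cyp4a genes among them are the textbook targets of PPARα in rodent liver. The list also holds 2 dehydrogenase genes, Adh4, which did not pass, and Aldh3a2, which is among the members that rose (1.49 ± 0.21). Of 14 tested members, 8 rose and 1, Cyp4f14, fell, with a median of 1.23 against -0.021 over all genes. When vehicle replicate 2 alone was kept, 5 passed as higher and 0 as lower, with a median of 1.35. Cyp4a14 stood at 177, 127 and 101 FPKM in vehicle replicates 1 to 3, at 2282, 2927 and 3366 FPKM in the 326E libraries, and at 8.75 to 55.9 FPKM in chow. The groups lay far apart, and the log2 fold change was 4.41 ± 0.55 (adjusted p = 0.00242). Cyp4a10, the second abundant member, was at 211, 198 and 152 FPKM in vehicle and at 1169, 1413 and 1918 FPKM in 326E libraries (2.98 ± 0.41, adjusted p = 0.00372). Cyp4a31 was lower in level, at 15.6 to 29.9 FPKM in vehicle and 143 to 283 FPKM in 326E libraries (3.29 ± 0.37, adjusted p = 0.00184). Cyp4a12a and Cyp4a12b, which are androgen-dependent in mice, differed from these in that vehicle replicate 2 was the highest vehicle library. Cyp4a12a stood at 10.1, 44.5 and 18.7 FPKM in vehicle and 266, 287 and 280 FPKM in 326E libraries (3.69 ± 0.57, adjusted p = 0.00552). With replicate 2 as the only vehicle library, the limma adjusted p was 0.0625 for Cyp4a10 (2.88 ± 0.64), 0.0835 for Cyp4a12a (2.61 ± 0.65) and 0.0519 for Cyp4a12b (2.32 ± 0.48). The Cyp4a genes are close paralogs in one cluster on chromosome 4, so the division of reads among them is uncertain.

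Peroxisomal beta-oxidation, which shortens very long and dicarboxylic fatty acids, rose in 12 of 24 tested members and fell in 0, with a median of 0.60. Against vehicle replicate 2 alone, 6 passed as higher and the median was 0.68. Ehhadh, the bifunctional enzyme of its middle steps, was at 235, 183 and 115 FPKM in vehicle and at 1661, 2110 and 2900 FPKM in 326E libraries. The lowest 326E library was thus well above the highest vehicle library, and chow stood at 76.0 to 169 FPKM (3.66 ± 0.35, adjusted p = 0.000923). Acaa1b, a thiolase of the last step, was at 526, 289 and 311 FPKM in vehicle and 1314, 1490 and 2018 FPKM in 326E libraries (2.13 ± 0.28, adjusted p = 0.00304). Among genes of peroxisome assembly and membrane, 5 of 21 rose and 0 fell, with a median of 0.33, and 1 of the 21 passed with only vehicle replicate 2 kept. Pex11a, which promotes division of peroxisomes, was at 36.7, 30.7 and 20.8 FPKM in vehicle and within 74.1 to 77.5 FPKM in 326E libraries (1.37 ± 0.20, adjusted p = 0.00456).

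In mitochondrial fatty acid oxidation, 12 of 20 tested members rose and 0 fell, with a median of 0.74, and 7 passed as higher with only vehicle replicate 2 kept, with a median of 0.84. Etfdh, which passes electrons from acyl-CoA dehydrogenases to ubiquinone, was at 25.2, 23.2 and 27.0 FPKM in vehicle and at 54.4, 51.5 and 60.6 FPKM in 326E libraries (1.11 ± 0.10, adjusted p = 0.000853). Eci1, an isomerase for unsaturated fatty acids, was at 63.3 to 75.5 FPKM in vehicle and 149 to 176 FPKM in 326E libraries (1.17 ± 0.12, adjusted p = 0.00139). Both genes had narrow groups that did not overlap. Cpt1a, the carnitine transferase that controls entry of fatty acids into mitochondria, overlapped between groups, at 184, 164 and 168 FPKM in vehicle and 160, 164 and 182 FPKM in 326E libraries (-0.03 ± 0.10, adjusted p = 0.872). In ketone body synthesis and transport, 1 of 10 tested members rose and 2, Slc16a6 and Oxct1, fell, with a median of 0.29, and 0 passed with only vehicle replicate 2 kept. Slc16a6, a transporter that exports ketone bodies, was at 2.40 to 4.06 FPKM in vehicle and 1.01 to 1.26 FPKM in 326E libraries (-0.85 ± 0.17, adjusted p = 0.0157, or 0.106 with vehicle replicate 2 alone).

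Enzymes that cleave or form acyl-CoA were also higher. Of 21 tested acyl-CoA thioesterases and synthetases, 13 rose and 1, Acss1, fell, with a median of 0.54, and 5 passed as higher with only vehicle replicate 2 kept. Acot1, a cytosolic thioesterase, was at 9.0, 13.5 and 3.51 FPKM in vehicle and 101, 120 and 124 FPKM in 326E libraries (3.74 ± 0.40, adjusted p = 0.00141). Its mitochondrial neighbour Acot2, a paralog so close that reads may be shared, was at 11.2 to 20.3 and 83.7 to 132 FPKM (2.51 ± 0.26, adjusted p = 0.00129). Of 23 other PPARα targets, 7 rose and 0 fell, with a median of 0.42. With only vehicle replicate 2 kept, 4 passed as higher and 1 as lower, with a median of 0.23. Retsat, a retinol saturase, was at 47.1, 31.7 and 34.3 FPKM in vehicle and 210, 231 and 272 FPKM in 326E libraries (2.64 ± 0.23, adjusted p = 0.00068). Fabp1, the main fatty acid binding protein of hepatocytes, was at 414, 515 and 756 FPKM in vehicle and 3065, 2255 and 1959 FPKM in 326E libraries (2.13 ± 0.25, adjusted p = 0.00215). Several well-known PPARα targets did not pass. Pdk4, which restrains pyruvate oxidation, had overlapping groups, at 79.5, 52.7 and 33.1 FPKM in vehicle and 22.2, 43.8 and 12.5 FPKM in 326E libraries (-1.13 ± 0.42, adjusted p = 0.112). Fgf21, a liver hormone of fasting, was at 3.78 to 8.48 FPKM in vehicle and 3.51 to 4.11 FPKM in 326E libraries (-0.48 ± 0.40, adjusted p = 0.467). Angptl4, a lipoprotein lipase inhibitor, was at 16.8 to 69.3 and 54.6 to 62.6 FPKM (0.71 ± 0.40, adjusted p = 0.276). Vnn1, a pantetheinase, did not overlap between groups, at 55.8 to 60.2 FPKM in vehicle and 101, 114 and 180 FPKM in 326E libraries, but missed the threshold (1.11 ± 0.34, adjusted p = 0.0623). Among these targets, Retsat and Fabp1 thus passed as higher, while the groups of Pdk4, Fgf21 and Angptl4 overlapped.

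**Figure D2:**
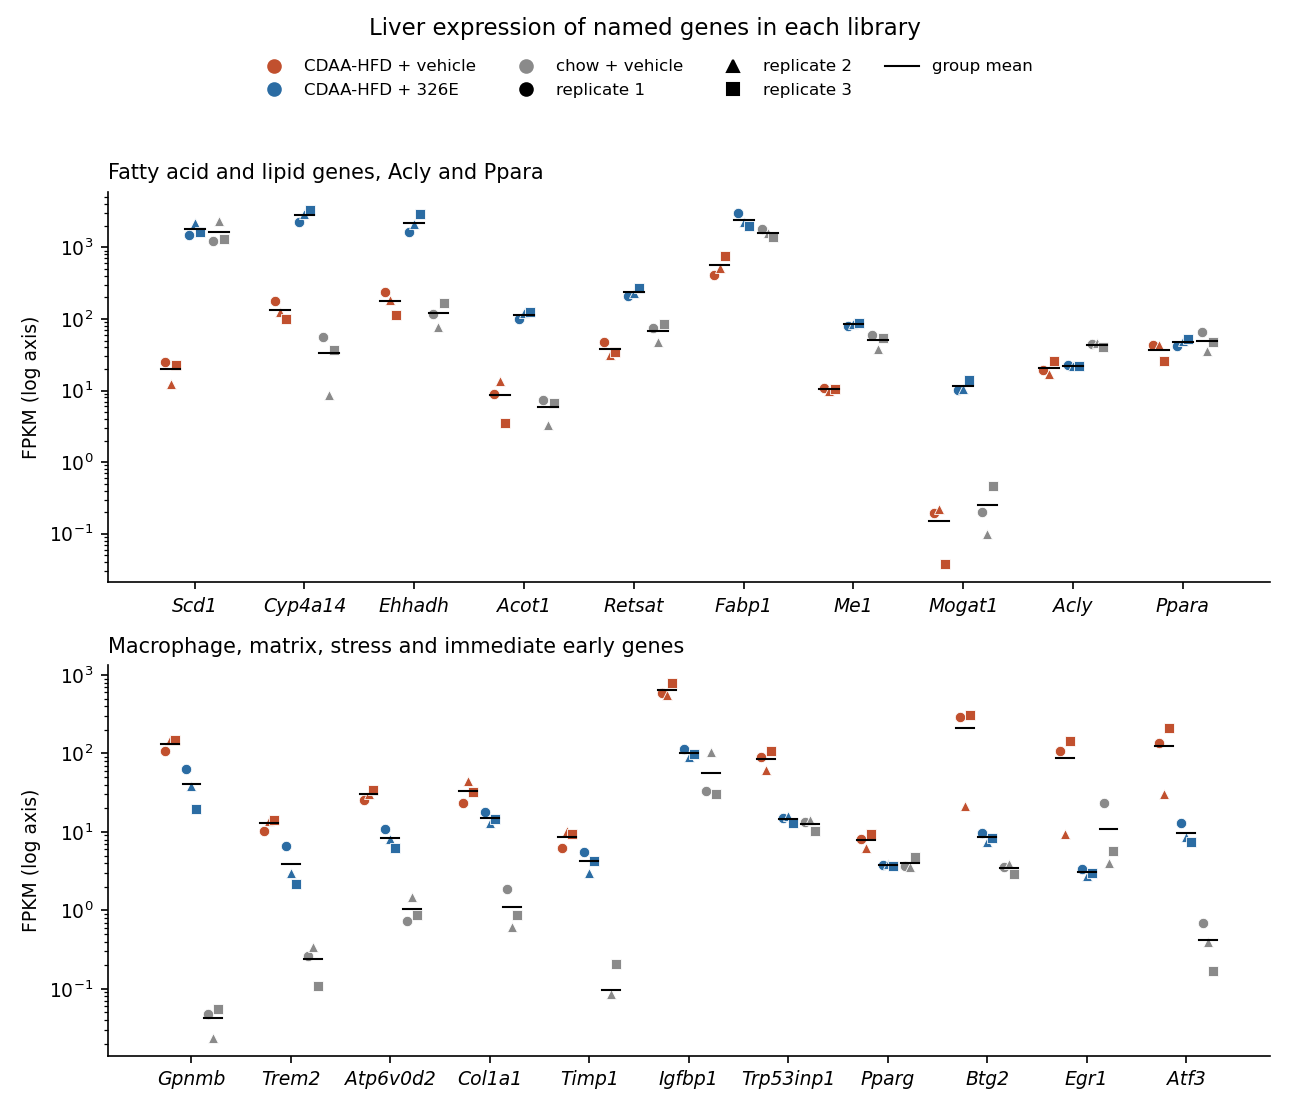
FPKM on log axes of 21 named genes in each library, with colours for the 3 groups, symbols for the replicates and a black bar for the group mean. The value of 0 for Timp1 in chow replicate 1 cannot be drawn on a log axis. The 326E libraries lie apart from vehicle for the first 8 genes of the upper panel and not for Acly and Ppara, and vehicle replicate 2 (triangle) lies nearer to the 326E libraries than the other vehicle libraries do for Btg2, Egr1 and Atf3.

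PPARα with RXR binds a direct repeat of 2 half-sites 1 base apart (DR1), written AGGTCANAGGTCA, and the promoters of the genes with large rises were read for it. The windows searched were the 250 bases before each gene start in RefSeq (GRCm38.p6, the same assembly as mm10), on both strands, with at most 2 mismatches in the 12 fixed bases. The window table held 9495 of the 13238 genes tested. A match was present in 3.24% of all 32851 windows of the table. For genes with more than 1 start the best window was taken, which gave 3.42% of the 9495 genes tested, 4.21% of the 523 called higher, 10.53% of the 95 called higher at least 2-fold and 2.06% of the 680 called lower. Of the genes in the omega-hydroxylase, peroxisomal, mitochondrial, thioesterase and other PPARα target lists, 13.75% of 80 had one. The motif is known from genes of these lists, so their share is a description of the windows and not of binding. The 10 matches among genes higher at least 2-fold are shown so that their spacing and half-sites can be compared. Each is turned to the direction in which the motif is written, with the 13 matched bases in capitals and 8 flanking bases on each side in lower case.
Mogat1: cagaattcAGGTAAAAAGTCAggctggtg
Slc39a5: gatgggggGGGTCAAAAGTCAgtctctgc
Fabp1: tcagatatAGGCCATAGGTCAgtgattgt
Cyp2d9: ggacacagAGGACAAAGGGCAaccctggc
Ucp3: tcagaattAGGTTTCAGGTCAgctggtgc
Rtp3: ctgtcccaGGGACAAAGGTCAgttgagtc
Slco1a1: tacatgctAGATCATAGGTCAatctcatt
9030616G12Rik: agccagagACTTCAGAGGTCAtacctgct
Aadat: ggcagcccAAGTCACTGGTCAgggatggg
Apoc2: ttctcttgAGGCCAGAGGTCAaccttccg
Of these, Mogat1, Fabp1 and Apoc2 fall under the rule for named genes, and the other 7 were named after their values were seen. Mogat1, Slc39a5 and Ucp3 passed the minimum through 326E libraries only. Their p-values, and the share among the 95 genes higher at least 2-fold, carry that selection. With 1 mismatch each, Fabp1, Slco1a1 and Apoc2 were nearest to the motif, and the rest had 2. The matches of Mogat1, Cyp2d9, Rtp3 and Aadat overlap an annotated exon, as does the whole window of Rtp3, and the other 6 lie outside exons. Apoc2 was higher at least 2-fold with all vehicle libraries and not with vehicle replicate 2 alone. The match in Fabp1 begins 67 bases before the RefSeq start and lies outside annotated exons. Fabp1 and Ucp3 are shown with their surroundings, on the strand of the gene and without bases that any annotated exon covers, because both are fatty acid genes in which vehicle and 326E libraries were far apart. The stretch for Fabp1 is chr6:71199629-71199826 and that for Ucp3 is chr7:100472741-100472989, both on the plus strand, with the match in capitals.
Fabp1: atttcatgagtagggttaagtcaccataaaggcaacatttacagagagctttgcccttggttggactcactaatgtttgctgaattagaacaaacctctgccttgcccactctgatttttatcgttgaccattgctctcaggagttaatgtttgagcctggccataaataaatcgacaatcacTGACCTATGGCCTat
Ucp3: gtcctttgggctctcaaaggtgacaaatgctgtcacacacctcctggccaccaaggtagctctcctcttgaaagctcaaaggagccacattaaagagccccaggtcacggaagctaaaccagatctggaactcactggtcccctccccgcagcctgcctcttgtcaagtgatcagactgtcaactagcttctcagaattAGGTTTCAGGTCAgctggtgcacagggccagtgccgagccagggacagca
Ucp3, a mitochondrial carrier that is scarcely expressed in normal liver, was at 0, 0.0314 and 0 FPKM in vehicle and at 3.16, 2.77 and 2.95 FPKM in 326E libraries (1.97 ± 0.08, adjusted p = 1.46e-05). Chow was likewise at 0 to 0.0246 FPKM, so only 326E libraries held more than a few reads of it. The window of Ehhadh held no match, which says only that these letters are not within it, and Cyp4a14 and Scd1 were not searched because the table holds no window under their names.

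The receptor itself and the named enzyme target did not pass. Ppara was at 42.8, 43.2 and 25.8 FPKM in vehicle and 42.4, 49.6 and 52.8 FPKM in 326E libraries (0.40 ± 0.24, adjusted p = 0.319). Rxra, its partner, was at 59.8 to 73.0 and 72.5 to 80.1 FPKM (0.20 ± 0.10, adjusted p = 0.224). Acly was at 19.6, 17.1 and 25.6 FPKM in vehicle and 23.1, 22 and 21.8 FPKM in 326E libraries, with chow at 40.8 to 45.8 FPKM (0.12 ± 0.14, adjusted p = 0.612). In all 3 genes the groups overlapped, and the 95% interval of the difference was 0.55 to either side for Ppara, 0.23 for Rxra and 0.31 for Acly. Of 17 tested PPAR family members, partners and coregulators, 0 rose and 2 fell, and 0 passed with only vehicle replicate 2 kept. Pparg, the receptor of adipocytes that also rises in fatty liver, was at 8.05, 6.16 and 9.36 FPKM in vehicle and 3.79, 3.92 and 3.73 FPKM in 326E libraries, next to 3.56 to 4.78 FPKM in chow (-0.86 ± 0.14, adjusted p = 0.0073, or -0.57 ± 0.16 and 0.104 with vehicle replicate 2 alone). Ppargc1a, a coactivator of mitochondrial genes, was at 3.13 to 4.86 and 2.05 to 2.69 FPKM (-0.64 ± 0.18, adjusted p = 0.0464, or 0.107 with vehicle replicate 2 alone).

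Fasn, Acaca and Acacb, whose enzymes act downstream of ACLY, were higher. The list of de novo lipogenesis also holds Acly itself, a citrate carrier, suppliers of NADPH and transcription factors. Of 14 tested genes of de novo lipogenesis, 8 rose and 0 fell, with a median of 0.73, and 4 passed as higher with only vehicle replicate 2 kept, with a median of 0.74. Me1, the malic enzyme that supplies NADPH, was at 11, 10 and 10.4 FPKM in vehicle and 80.0, 85.1 and 88.9 FPKM in 326E libraries (2.90 ± 0.15, adjusted p = 3.19e-05). Its libraries varied little within each group, and chow lay between them at 38.2 to 59.1 FPKM. Fasn, the fatty acid synthase, was at 14.5, 11.2 and 15.8 FPKM in vehicle and 41.6, 39.7 and 28.7 FPKM in 326E libraries (1.34 ± 0.16, adjusted p = 0.00224). Srebf1, which encodes the transcription factor that drives this pathway, was at 17.6, 8.85 and 16.0 FPKM in vehicle and 36.8, 34.3 and 44.0 FPKM in 326E libraries (1.42 ± 0.26, adjusted p = 0.00986).

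Scd1 had the largest rise of all protein-coding genes named by the rule. It encodes the desaturase that makes monounsaturated fatty acids and stood at 24.9, 12.4 and 22.8 FPKM in vehicle, at 1481, 2225 and 1633 FPKM in 326E libraries and at 1220 to 2354 FPKM in chow. The 326E libraries lay within the range of chow, and the log2 fold change against vehicle was 6.44 ± 0.32 (adjusted p = 3.19e-05). Of 15 tested desaturases and elongases, 8 rose and 0 fell, with a median of 0.64, and 2 passed with only vehicle replicate 2 kept. Elovl3, an elongase of saturated fatty acids that varies with the time of day, was at 4.87, 7.15 and 3.77 FPKM in vehicle and 77.8, 42.3 and 56.6 FPKM in 326E libraries (3.25 ± 0.26, adjusted p = 0.000455). Elovl6, which elongates the products of Fasn, did not overlap between groups but missed the threshold, at 14.9 to 20.3 and 24.9 to 29.6 FPKM (0.64 ± 0.25, adjusted p = 0.131).

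Triglyceride assembly and storage genes went both ways. Of 20 tested genes of glycerolipid synthesis, Mogat1, Lpcat3, Gpam and Agpat2 rose and Lpcat1 fell, with a median of 0.03. With only vehicle replicate 2 kept, 3 passed as higher and 0 as lower. Mogat1, which makes diacylglycerol from monoacylglycerol (chromosome 1, 78510991 to 78538173 on mm10), was nearly absent from vehicle at 0.196, 0.221 and 0.0373 FPKM and from chow at 0.0991 to 0.467 FPKM. In 326E libraries it was at 10.2, 10.5 and 13.9 FPKM (3.44 ± 0.15, adjusted p = 1.46e-05). Lpcat3, which places polyunsaturated fatty acids in phosphatidylcholine, was at 28.3, 25.3 and 28.4 FPKM in vehicle and 53.4, 55.0 and 52.9 FPKM in 326E libraries (0.95 ± 0.09, adjusted p = 0.00075). Of 20 lipid droplet proteins and lipases, Ces1f, Hsd17b11, Fitm1, Mgll and Lipe rose and Hilpda fell, with a median of 0.51, and 5 passed as higher and 0 as lower with only vehicle replicate 2 kept. Ces1f, a carboxylesterase, was at 20.6, 10.5 and 25.2 FPKM in vehicle and 81.2, 90 and 101 FPKM in 326E libraries (2.29 ± 0.27, adjusted p = 0.002). Hilpda, an inhibitor of droplet lipolysis that hypoxia induces, was at 47.2, 8.07 and 32.0 FPKM in vehicle and 3.44, 2.71 and 4.63 FPKM in 326E libraries (-2.43 ± 0.51, adjusted p = 0.0175). Vehicle replicate 2 was much nearer to 326E for Hilpda, and with it alone as vehicle the difference was -1.0 ± 0.25 (adjusted p = 0.0835). The droplet coat gene Plin2 was at 241 to 353 and 357 to 469 FPKM (0.54 ± 0.32, adjusted p = 0.31), the fatty acid receptor Cd36 at 162 to 180 and 154 to 224 FPKM (0.10 ± 0.17, adjusted p = 0.743), and Cidec, which enlarges droplets, at 17.9 to 37.2 and 24.5 to 39.2 FPKM (0.22 ± 0.33, adjusted p = 0.692).

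In cholesterol synthesis and uptake, 6 of 25 tested members rose and 0 fell, with a median of 0.44. With only vehicle replicate 2 kept, 6 passed as higher and 0 as lower, with a median of 0.83, and the median of the list in that library was -0.70 against -0.06 and 0.04 in vehicle replicates 1 and 3. All 6, Tm7sf2, Nsdhl, Dhcr7, Sc5d, Ebp and Scap, are enzymes or a regulator of the pathway, and the first 5 act after squalene is closed to lanosterol. Tm7sf2, a sterol reductase, was at 7.81, 7.05 and 7.79 FPKM in vehicle and 20.4, 19.3 and 23.2 FPKM in 326E libraries, near the 24.2 to 26.0 FPKM of chow (1.36 ± 0.09, adjusted p = 0.00015). Nsdhl, a sterol dehydrogenase, was at 9.59 to 14.6 and 22.4 to 37.0 FPKM (1.24 ± 0.19, adjusted p = 0.00536). Sqle, which makes the epoxide of squalene, overlapped between groups, at 9.06 to 16.3 and 10.5 to 14.7 FPKM (-0.15 ± 0.24, adjusted p = 0.727). Of 23 lipoprotein and cholesterol efflux genes, Apoc2, Abcg8 and Soat2 rose and Apoa4, Apobec1 and Abcg1 fell, with a median of 0.14, and 0 passed with only vehicle replicate 2 kept. Apoa4, an apolipoprotein that rises in fatty liver, was at 241, 186 and 124 FPKM in vehicle and 109, 80.2 and 60.3 FPKM in 326E libraries (-1.12 ± 0.28, adjusted p = 0.0329, or 0.108 with vehicle replicate 2 alone). Apoc2, the activator of lipoprotein lipase, was low, at 0.0714 to 1.27 and 1.53 to 3.0 FPKM (1.07 ± 0.30, adjusted p = 0.0463, or 0.41 ± 0.31 and 0.532 with vehicle replicate 2 alone).

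Bile acid enzymes and transporters went both ways. Of 23 tested members, Cyp7b1, Slco1a1, Abcb11 and Abcb4 rose and Slco1a4 and Cyp39a1 fell, with a median of 0.05, and 0 passed as higher and 1 as lower with only vehicle replicate 2 kept. Cyp7b1, of the alternative pathway of bile acid synthesis, was at 25.6, 41.8 and 23.0 FPKM in vehicle and 140, 74.1 and 145 FPKM in 326E libraries, below the 214 to 412 FPKM of chow (1.94 ± 0.34, adjusted p = 0.00898, or 0.155 with vehicle replicate 2 alone). Slco1a4, an organic anion uptake transporter, was at 13.9, 11.1 and 16.0 FPKM in vehicle and 0.926, 1.78 and 1.53 FPKM in 326E libraries, while chow stood at 7.78 to 18.4 FPKM (-2.60 ± 0.28, adjusted p = 0.0014). Its 326E libraries were thus below both other groups. Cyp7a1, the rate-limiting enzyme of the main pathway, varied widely, at 11.4 to 36.8 and 11.5 to 77.3 FPKM (0.40 ± 0.68, adjusted p = 0.741).

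Genes of recruited and lipid-associated macrophages, which gather around fat-laden and dying hepatocytes, were lower with 326E. Of 28 tested members, 14 fell and 0 rose, with a median of -0.66, and 9 passed as lower with only vehicle replicate 2 kept, with a median of -0.88. In bulk tissue, fewer cells of a type and less RNA per cell cannot be told apart. Gpnmb, a glycoprotein of lysosomes in these cells, was at 107, 147 and 147 FPKM in vehicle and 64.2, 38.1 and 19.4 FPKM in 326E libraries, far above the 0.0237 to 0.0559 FPKM of chow (-1.84 ± 0.34, adjusted p = 0.0118). Trem2, their lipid receptor, was at 10.3, 13.9 and 14.2 FPKM in vehicle and 6.59, 3.03 and 2.16 FPKM in 326E libraries (-1.58 ± 0.28, adjusted p = 0.00941). For both genes 326E replicate 1 was the highest of its group. Against vehicle replicate 2 alone, Gpnmb differed by -1.99 ± 0.52 (adjusted p = 0.0929) and Trem2 by -1.69 ± 0.42 (adjusted p = 0.0835). Atp6v0d2, a subunit of the lysosomal proton pump, was at 25.7, 30.5 and 34.2 FPKM in vehicle and 10.8, 8.19 and 6.18 FPKM in 326E libraries (-1.75 ± 0.20, adjusted p = 0.00184). Clec7a, the beta-glucan receptor dectin-1, which the table types as a polymorphic pseudogene, was at 80.8, 80.7 and 85.9 FPKM in vehicle and 35.6, 31.2 and 32.2 FPKM in 326E libraries (-1.30 ± 0.09, adjusted p = 0.00015). The summed level of the list was 1573 to 2461 FPKM in vehicle, 862.9 to 1436 FPKM in 326E and 230.8 to 300 FPKM in chow libraries. Of 25 lysosomal enzymes, 9 fell and 0 rose, with a median of -0.37, and 2 passed as lower with only vehicle replicate 2 kept. Ctsk, a collagen-degrading protease, was at 6.87 to 8.25 and 1.39 to 4.27 FPKM (-1.31 ± 0.25, adjusted p = 0.0127, or 0.139 with vehicle replicate 2 alone), and Ctss, a protease of antigen-presenting cells, at 216 to 350 and 93.8 to 186 FPKM (-1.23 ± 0.28, adjusted p = 0.024, or 0.0887 with vehicle replicate 2 alone).

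Markers of resident Kupffer cells mostly did not pass. Of 14 tested members, 1 rose and 1 fell, with a median of 0.16, and 0 passed with only vehicle replicate 2 kept. Timd4, a receptor of long-lived Kupffer cells, was at 1.97, 0.974 and 0.855 FPKM in vehicle, at 3.18, 3.46 and 7.18 FPKM in 326E libraries and at 4.86 to 5.93 FPKM in chow (1.27 ± 0.26, adjusted p = 0.0168, or 0.0801 with vehicle replicate 2 alone). Clec4f, their defining lectin, overlapped between groups, at 59.4, 34.4 and 35.3 FPKM in vehicle and 41.8, 38.6 and 80.0 FPKM in 326E libraries (0.27 ± 0.28, adjusted p = 0.569). Slc15a3, a lysosomal transporter on that list, was at 9.23 to 10.3 and 4.77 to 6.32 FPKM (-0.75 ± 0.13, adjusted p = 0.00921, or 0.134 with vehicle replicate 2 alone).

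Among inflammasome, cytokine and chemokine genes, 13 of 32 tested members fell and 0 rose, with a median of -0.63, and 5 passed as lower with only vehicle replicate 2 kept, with a median of -0.36. Tlr13, an endosomal receptor for bacterial RNA, was at 10.2, 15.4 and 12.1 FPKM in vehicle and 5.83, 3.72 and 4.74 FPKM in 326E libraries (-1.24 ± 0.18, adjusted p = 0.00464). Ccl7, a monocyte chemokine, was at 28.5, 4.48 and 26.5 FPKM in vehicle and 3.53, 2.83 and 2.95 FPKM in 326E libraries (-2.01 ± 0.54, adjusted p = 0.0424). Its call rested on vehicle replicates 1 and 3, and with replicate 2 alone the difference was -0.42 ± 0.19 (adjusted p = 0.287). Ccl2, which draws monocytes to the liver, had the same pattern, at 26.9, 7.65 and 25.6 FPKM in vehicle and 7.16, 5.93 and 5.76 FPKM in 326E libraries, and missed the threshold (-1.36 ± 0.41, adjusted p = 0.0623). Tnf was low and overlapped, at 0.85 to 0.932 and 0.507 to 1.42 FPKM (-0.09 ± 0.17, adjusted p = 0.758).

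Other leukocyte markers changed in few members. Of 15 dendritic cell and class II genes, 2 fell and 0 rose, with a median of -0.22. Those were Ccr7, the receptor for homing to lymph nodes, at 2.11 to 2.47 and 0.973 to 1.39 FPKM (-0.59 ± 0.11, adjusted p = 0.00991, or 0.0849 with vehicle replicate 2 alone), and Cd83, a maturation marker, at 7.0 to 11.1 and 3.83 to 5.12 FPKM (-0.90 ± 0.18, adjusted p = 0.0159, or -0.55 ± 0.22 and 0.234 with vehicle replicate 2 alone). Of 7 neutrophil genes tested, 1 fell, the chemokine receptor Cxcr2 at 0.662 to 1.29 and 0.28 to 0.472 FPKM (-0.56 ± 0.14, adjusted p = 0.0326, or 0.0633 with vehicle replicate 2 alone). In the lists of T and NK cells (6 tested of 19 listed, median 0.12) and of B and plasma cells (6 of 11, median -0.02), 0 genes passed in limma, with 1 and 0 of the 6 at an unadjusted p under 0.05, and voom called 0 in either. In the dendritic, neutrophil, T and NK, and B cell lists, 0 genes passed with only vehicle replicate 2 kept. Of 29 interferon-stimulated genes, 1, Bst2, rose and 2, Oas1a and Oas3, fell, with a median of -0.25, and 2 passed as lower with only vehicle replicate 2 kept. Oas1a, a sensor enzyme for double-stranded RNA, was at 8.76 to 9.70 and 3.64 to 6.28 FPKM (-0.78 ± 0.19, adjusted p = 0.0281, or 0.185 with vehicle replicate 2 alone).

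Matrix genes passed as lower more often than as higher. Among 19 tested collagens, 7 fell and 0 rose, with a median of -0.50, and 4 passed as lower with only vehicle replicate 2 kept, with a median of -0.80. Col1a1, a chain of type I collagen, was at 23.1, 44.4 and 32.7 FPKM in vehicle, at 17.8, 13.1 and 14.5 FPKM in 326E libraries and at 0.612 to 1.85 FPKM in chow (-1.05 ± 0.26, adjusted p = 0.0322). Col1a2, its partner chain, was at 14.9, 24.3 and 16.3 FPKM in vehicle and 8.76, 7.44 and 8.80 FPKM in 326E libraries (-1.03 ± 0.20, adjusted p = 0.0136). Col3a1 was at 44.2, 63.3 and 53.1 FPKM in vehicle and 29.2, 23.3 and 29.3 FPKM in 326E libraries (-0.94 ± 0.23, adjusted p = 0.0316). For these chains vehicle replicate 2 was the highest library, the reverse of its place for immediate early genes. Against it alone, Col1a1 differed by -1.50 ± 0.31 (adjusted p = 0.0538), Col1a2 by -1.44 ± 0.24 (adjusted p = 0.0341) and Col3a1 by -1.19 ± 0.34 (adjusted p = 0.108). The summed collagen level was 233.4 to 325.5 FPKM in vehicle, 181.6 to 209.1 FPKM in 326E and 123.6 to 161.8 FPKM in chow libraries.

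Of 31 other matrix and crosslinking genes, 8 fell and 1 rose, with a median of -0.37, and 8 and 1 passed with only vehicle replicate 2 kept. Spon2, a secreted matrix protein, was the one that rose, from 4.0, 3.47 and 4.0 FPKM in vehicle to 12.6, 12.1 and 8.96 FPKM in 326E libraries (1.33 ± 0.13, adjusted p = 0.00111). Thbs1, a matricellular protein that activates TGF-beta, was at 57.9, 6.25 and 67.0 FPKM in vehicle and 2.87, 2.18 and 2.31 FPKM in 326E libraries (-3.16 ± 0.71, adjusted p = 0.0222), and at -1.08 ± 0.26 (adjusted p = 0.0785) against vehicle replicate 2 alone. Lox, the collagen crosslinking oxidase, lay at 1.59 to 3.53 and 0.702 to 1.36 FPKM and missed the threshold (-0.70 ± 0.20, adjusted p = 0.0503). Against vehicle replicate 2 alone its fall was larger, at -1.13 ± 0.20. Of 23 matrix proteases and their inhibitors, 12 fell and 0 rose, with a median of -0.57, and 2 passed as lower with only vehicle replicate 2 kept, with a median of -0.68. Adam8, a protease of myeloid cells, was at 9.33, 12.1 and 13.4 FPKM in vehicle and 5.27, 1.73 and 1.78 FPKM in 326E libraries (-1.79 ± 0.29, adjusted p = 0.00639, or 0.0716 with vehicle replicate 2 alone). Timp1, a metalloproteinase inhibitor, was at 6.20, 10.3 and 9.41 FPKM in vehicle and 5.54, 2.99 and 4.21 FPKM in 326E libraries (-0.88 ± 0.21, adjusted p = 0.028), and against vehicle replicate 2 alone it missed the threshold (-1.14 ± 0.26, adjusted p = 0.0675).

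Markers of stellate cells and myofibroblasts, the collagen-making cells, were called in few members. Of 23 tested members, 2 fell and 0 rose, with a median of -0.15, and 2 passed as lower with only vehicle replicate 2 kept. Vim, an intermediate filament, was at 58.9, 70.3 and 69.8 FPKM in vehicle and 34.5, 26.1 and 24.2 FPKM in 326E libraries (-1.21 ± 0.17, adjusted p = 0.00387), and macrophages express it as well. Hgf, a growth factor for hepatocytes, was at 6.59 to 7.63 and 3.42 to 4.68 FPKM (-0.69 ± 0.13, adjusted p = 0.0126, or 0.154 with vehicle replicate 2 alone). Acta2, the actin that defines myofibroblasts, varied within vehicle, at 3.81, 10.8 and 17.1 FPKM, and was at 11.4, 14.9 and 7.73 FPKM in 326E libraries (0.25 ± 0.58, adjusted p = 0.811). Of 28 genes of TGF-beta and growth signals, 7 fell and 0 rose, with a median of -0.45, and 3 passed as lower with only vehicle replicate 2 kept. Ctgf, a profibrotic secreted protein, was at 26.5, 27.7 and 26.1 FPKM in vehicle and 7.54, 5.82 and 10.5 FPKM in 326E libraries (-1.66 ± 0.26, adjusted p = 0.00584, or 0.0765 with vehicle replicate 2 alone). Areg, an EGF receptor ligand, was at 5.48, 1.34 and 12.1 FPKM in vehicle and 0.162 to 0.729 FPKM in 326E libraries (-1.98 ± 0.50, adjusted p = 0.0333, or -0.66 ± 0.22 and 0.159 with vehicle replicate 2 alone).

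**Figure D3:**
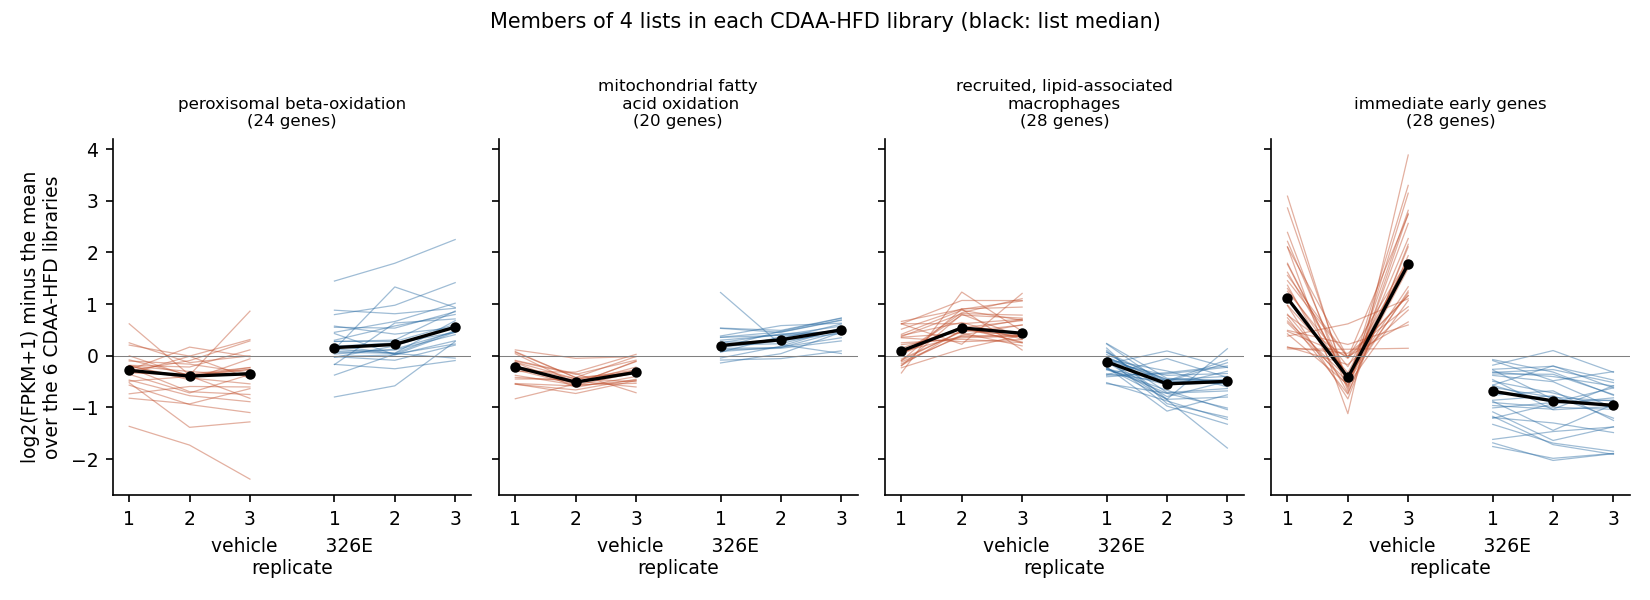
Thin lines join the log2(FPKM+1) values of 1 gene, relative to its mean over the 6 CDAA-HFD libraries, in the vehicle and in the 326E replicates, for 4 lists, and black points are the list medians. The medians of both oxidation lists are below 0 in each vehicle library and above 0 in each 326E library, while for immediate early genes vehicle replicate 2 stands at -0.42, near the 326E libraries, and vehicle replicates 1 and 3 at 1.11 and 1.78.

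Of the 15 named genes with the largest falls, 6 were on the list of immediate early genes, and vehicle replicate 2 had low levels of them. Of 28 tested members, 16 fell and 0 rose, with a median of -1.69, which became -0.50 with only vehicle replicate 2 kept, when 4 passed as lower. Egr1, a zinc finger transcription factor, was at 107, 9.30 and 145 FPKM in vehicle and 3.38, 2.74 and 3.0 FPKM in 326E libraries (-3.76 ± 0.93, adjusted p = 0.0312). Against vehicle replicate 2 alone the difference was -1.35 ± 0.75 (adjusted p = 0.382). Btg2, an inhibitor of proliferation, was at 295, 21.5 and 307 FPKM in vehicle and 9.80, 7.53 and 8.34 FPKM in 326E libraries (-3.74 ± 0.84, adjusted p = 0.0218), and the difference from replicate 2 alone was -1.24 ± 0.18 (adjusted p = 0.031). Atf3, a stress-induced repressor, was at 136, 30.1 and 210 FPKM in vehicle and 13.1, 8.63 and 7.45 FPKM in 326E libraries (-3.20 ± 0.59, adjusted p = 0.0108), and -1.57 ± 0.30 (adjusted p = 0.0466) against replicate 2 alone. Fos, Egr2 and Ier3 of the list and the phosphatase Dusp5 outside it had the same shape, with 3.24 to 4.96 FPKM in vehicle replicate 2 and at least 23.5 FPKM in the other two vehicle libraries. Their differences were -2.98 to -2.60, and with vehicle replicate 2 alone they were -0.86 to -0.46, where Fos (adjusted p = 0.0987) and Dusp5 (adjusted p = 0.219) did not pass. Rcan1, a calcineurin inhibitor, was at 113, 16.4 and 85.7 FPKM in vehicle and 7.48 to 9.34 FPKM in 326E libraries (-2.54 ± 0.57, adjusted p = 0.0217, or -0.87 ± 0.15 and 0.0385 with vehicle replicate 2 alone). The summed level of the list was 285 to 1703 FPKM in vehicle and 151.6 to 197.4 FPKM in 326E libraries.

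In other genes with large falls, vehicle replicate 2 stood less far from the other vehicle libraries. Trp53inp1, a p53-induced stress gene, was at 91.1, 60.7 and 106 FPKM in vehicle, at 14.9, 16.1 and 12.9 FPKM in 326E libraries and at 10.4 to 14.0 FPKM in chow (-2.45 ± 0.20, adjusted p = 0.000499). Against vehicle replicate 2 alone it was -1.99 ± 0.19 (adjusted p = 0.014). Igfbp1, a secreted IGF-binding protein that fasting and stress induce in hepatocytes, was at 587, 548 and 785 FPKM in vehicle and 114, 90.7 and 97.6 FPKM in 326E libraries (-2.64 ± 0.40, adjusted p = 0.00523). With vehicle replicate 2 alone, its difference was -2.44 ± 0.61 and its adjusted p 0.0835. Rdh16f2, a retinol dehydrogenase, was at 56.8, 27.8 and 69.6 FPKM in vehicle and 6.22, 3.85 and 15.4 FPKM in 326E libraries, with chow at 61.7 to 107 FPKM (-2.56 ± 0.47, adjusted p = 0.0109), and its difference from vehicle replicate 2 alone was -1.79 ± 0.62 (adjusted p = 0.174).

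NRF2 is the factor that switches on antioxidant enzymes. Counted with its targets here are its own gene Nfe2l2 and its inhibitor Keap1. Nfe2l2 passed as lower, at a mean of 38.0 FPKM in vehicle and 24.1 FPKM in 326E libraries, and Keap1 did not pass. Of 24 tested NRF2 targets, 9 fell and 2, Gstm4 and Ephx1, rose, with a median of -0.33, but 0 passed as lower and 1 as higher with only vehicle replicate 2 kept. Gstm3, a glutathione transferase, was at 125, 123 and 92.6 FPKM in vehicle and 44.4, 65.6 and 30.4 FPKM in 326E libraries (-1.31 ± 0.26, adjusted p = 0.0138, or 0.0951 with vehicle replicate 2 alone). Gsta1, of another class of these enzymes, was at 6.38 to 8.18 and 2.06 to 3.55 FPKM (-1.22 ± 0.18, adjusted p = 0.00489, or 0.0847 with vehicle replicate 2 alone). Both belong to families of similar genes that may share reads. Of 24 unfolded protein and integrated stress genes, 1 fell, Herpud1, which serves the removal of misfolded proteins, at 125 to 168 and 81.3 to 88.0 FPKM (-0.81 ± 0.19, adjusted p = 0.0257, or 0.0962 with vehicle replicate 2 alone), and the list median was -0.31, with 0 passing when only vehicle replicate 2 was kept. Of 35 cell cycle genes, 6 fell and 0 rose, with a median of -0.21, and 0 passed with only vehicle replicate 2 kept. Cdkn1a, the cyclin-dependent kinase inhibitor p21, was at 15, 9.76 and 10.9 FPKM in vehicle and 4.33, 2.68 and 1.75 FPKM in 326E libraries (-1.75 ± 0.26, adjusted p = 0.00466, or 0.0773 with vehicle replicate 2 alone). Ccne2, a cyclin of entry into S phase, was low, at 1.27 to 1.80 and 0.405 to 1.05 FPKM (-0.60 ± 0.14, adjusted p = 0.0288, or 0.297 with vehicle replicate 2 alone). Of 17 clock genes, 5 fell and 1 rose, with a median of -0.12, and 2 passed as higher and 1 as lower with only vehicle replicate 2 kept. Per1, which also responds to stimuli like an immediate early gene, was at 12.4, 9.47 and 16.4 FPKM in vehicle and 3.75 to 4.17 FPKM in 326E libraries (-1.42 ± 0.35, adjusted p = 0.0323, or 0.326 with vehicle replicate 2 alone). Nfil3, a repressor, was at 12, 5.76 and 17.3 and at 2.93 to 3.49 FPKM (-1.47 ± 0.34, adjusted p = 0.0234, or -0.68 ± 0.30 and 0.276 with vehicle replicate 2 alone). The one that rose, Nr1d1, named after its value was seen, encodes REV-ERBα and was at 6.95 to 9.23 FPKM in vehicle and 20.2 to 22.8 FPKM in 326E libraries (1.29 ± 0.13, adjusted p = 0.00139).

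Few genes of hepatocyte identity and secreted proteins passed, with 1 of 28 higher, 0 lower and a median of -0.01, and with 0 passing when only vehicle replicate 2 was kept. Their summed level was 33510 to 47460 FPKM in vehicle and 30650 to 40720 FPKM in 326E libraries. Alb, the albumin gene that defines hepatocyte RNA, was at 25838, 20061 and 32449 FPKM in vehicle and 16456, 18250 and 25782 FPKM in 326E libraries (-0.37 ± 0.32, adjusted p = 0.476), and the transcription factor Hnf4a was at 81.7 to 86.6 and 86.8 to 103 FPKM (0.14 ± 0.14, adjusted p = 0.549). The one that rose was Foxa2, a pioneer factor, at 2.74 to 4.86 and 5.64 to 8.24 FPKM (0.87 ± 0.24, adjusted p = 0.0453, or 0.50 ± 0.32 and 0.457 with vehicle replicate 2 alone). The 30 acute phase and complement genes had a median of -0.42, with 1 lower, Steap4, an inflammation-induced metalloreductase, at 182, 140 and 233 FPKM in vehicle and 72.6, 65.0 and 68.7 FPKM in 326E libraries (-1.39 ± 0.17, adjusted p = 0.00242). Against vehicle replicate 2 alone, 1 of these 30 passed as lower.

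In glucose metabolism, 6 of 34 tested members fell and 0 rose, with a median of -0.33, and 2 passed as lower with only vehicle replicate 2 kept. The pair with the largest falls are not the hepatocyte forms of their enzymes. Hk3, a hexokinase of myeloid cells, was at 10.2, 9.49 and 9.27 FPKM in vehicle and 4.89, 3.89 and 3.67 FPKM in 326E libraries (-1.05 ± 0.12, adjusted p = 0.00184), and Pkm, the pyruvate kinase of non-hepatocytes, at 20.4 to 27.7 and 10.4 to 16.3 FPKM (-0.95 ± 0.18, adjusted p = 0.0136, or 0.0736 with vehicle replicate 2 alone). These falls stand beside the falls of macrophage genes given above, and their part in each other was not tested. Of 34 nuclear subunits of the respiratory chain 1 rose, Ndufa10 of complex I, at 27.5 to 31.0 and 37.0 to 42.5 FPKM (0.42 ± 0.10, adjusted p = 0.0295, or 0.142 with vehicle replicate 2 alone), with a list median of 0.25, and 0 passed with only vehicle replicate 2 kept. The 13 protein-coding genes of the mitochondrial genome had a median of 0.33 and 0 passed in limma. Of the 13, 4 were at an unadjusted p under 0.05 and 1 was higher in voom, beside the higher share of mitochondrial reads in 326E libraries. Over all 31 tested genes of the mitochondrial chromosome, 0 passed as higher and 5 as lower, with a median of -0.18. With only vehicle replicate 2 kept, 1 of the 13 passed as higher and 1 as lower.

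Of 27 methyl donor and choline genes, Cbs, Chdh and Pcyt2 rose and Cth fell, with a median of 0.06, and 2 passed as higher with only vehicle replicate 2 kept. Chdh, which oxidises choline toward betaine, was at 28.9, 23.9 and 25.3 FPKM in vehicle and 42.0, 45.3 and 47.4 FPKM in 326E libraries (0.77 ± 0.11, adjusted p = 0.00464). Cbs, which withdraws homocysteine from the methionine cycle, was at 21.3 to 35.6 and 46.4 to 60.5 FPKM (0.88 ± 0.18, adjusted p = 0.0168). In amino acid catabolism and the urea cycle, 3 of 29, Hpd, Bckdha and Nags, rose and 3, Asl, Prodh and Glul, fell, with a median of -0.12, and 0 passed with only vehicle replicate 2 kept. Asl, the argininosuccinate lyase of the urea cycle, was at 74.7, 74.0 and 65.4 FPKM in vehicle and 31.5, 28.8 and 42.8 FPKM in 326E libraries (-1.05 ± 0.18, adjusted p = 0.0073, or 0.0786 with vehicle replicate 2 alone), and chow was at 73.5 to 106 FPKM. Hpd, of tyrosine breakdown, was at 201 to 346 and 411 to 487 FPKM (0.82 ± 0.22, adjusted p = 0.0398, or 0.111 with vehicle replicate 2 alone). Of 30 xenobiotic genes, Cyp2a4, Cyp2d9 and Ces2a rose and Cyp2c37 and Sult1a1 fell, with a median of 0.19, and 3 and 1 passed with only vehicle replicate 2 kept. Cyp2a4, a steroid hydroxylase that is higher in female mice, was at 10.5, 2.69 and 12.1 FPKM in vehicle and 25.9, 57.4 and 89.1 FPKM in 326E libraries (2.66 ± 0.53, adjusted p = 0.0146). Cyp2c37, a fatty acid epoxygenase, was at 50.5, 25.5 and 65.7 FPKM in vehicle and 3.54, 8.04 and 19.3 FPKM in 326E libraries, with chow at 194 to 262 FPKM (-2.26 ± 0.50, adjusted p = 0.0218, or -1.49 ± 0.69 and 0.296 with vehicle replicate 2 alone).

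Markers of the remaining liver cells, and of tissue that can be carried over at dissection, were called in few members. Of 16 cholangiocyte and ductular genes, 1 rose and 0 fell, with a median of -0.35. That gene, Krt23, is a keratin that hepatocytes can also express, and it was at 2.27, 3.74 and 2.04 FPKM in vehicle and 27.8, 40 and 32.2 FPKM in 326E libraries (3.23 ± 0.46, adjusted p = 0.0044, or 0.0835 with vehicle replicate 2 alone). Of 24 sinusoidal and vascular endothelial genes 0 passed in limma and 0 in voom, with 6 at an unadjusted p under 0.05, a median of 0.08 and a summed level of 203 to 229.3 FPKM in vehicle and 213.3 to 226.8 FPKM in 326E libraries. On the list for blood, pancreas, muscle and fat, 7 of 24 members reached the minimum and 1 rose, Alas2 of heme synthesis, at 21.1 to 23.0 and 28.0 to 35.8 FPKM (0.50 ± 0.11, adjusted p = 0.0216, or 0.162 with vehicle replicate 2 alone). For these 3 lists 0 genes passed with only vehicle replicate 2 kept.

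**Figure D4:**
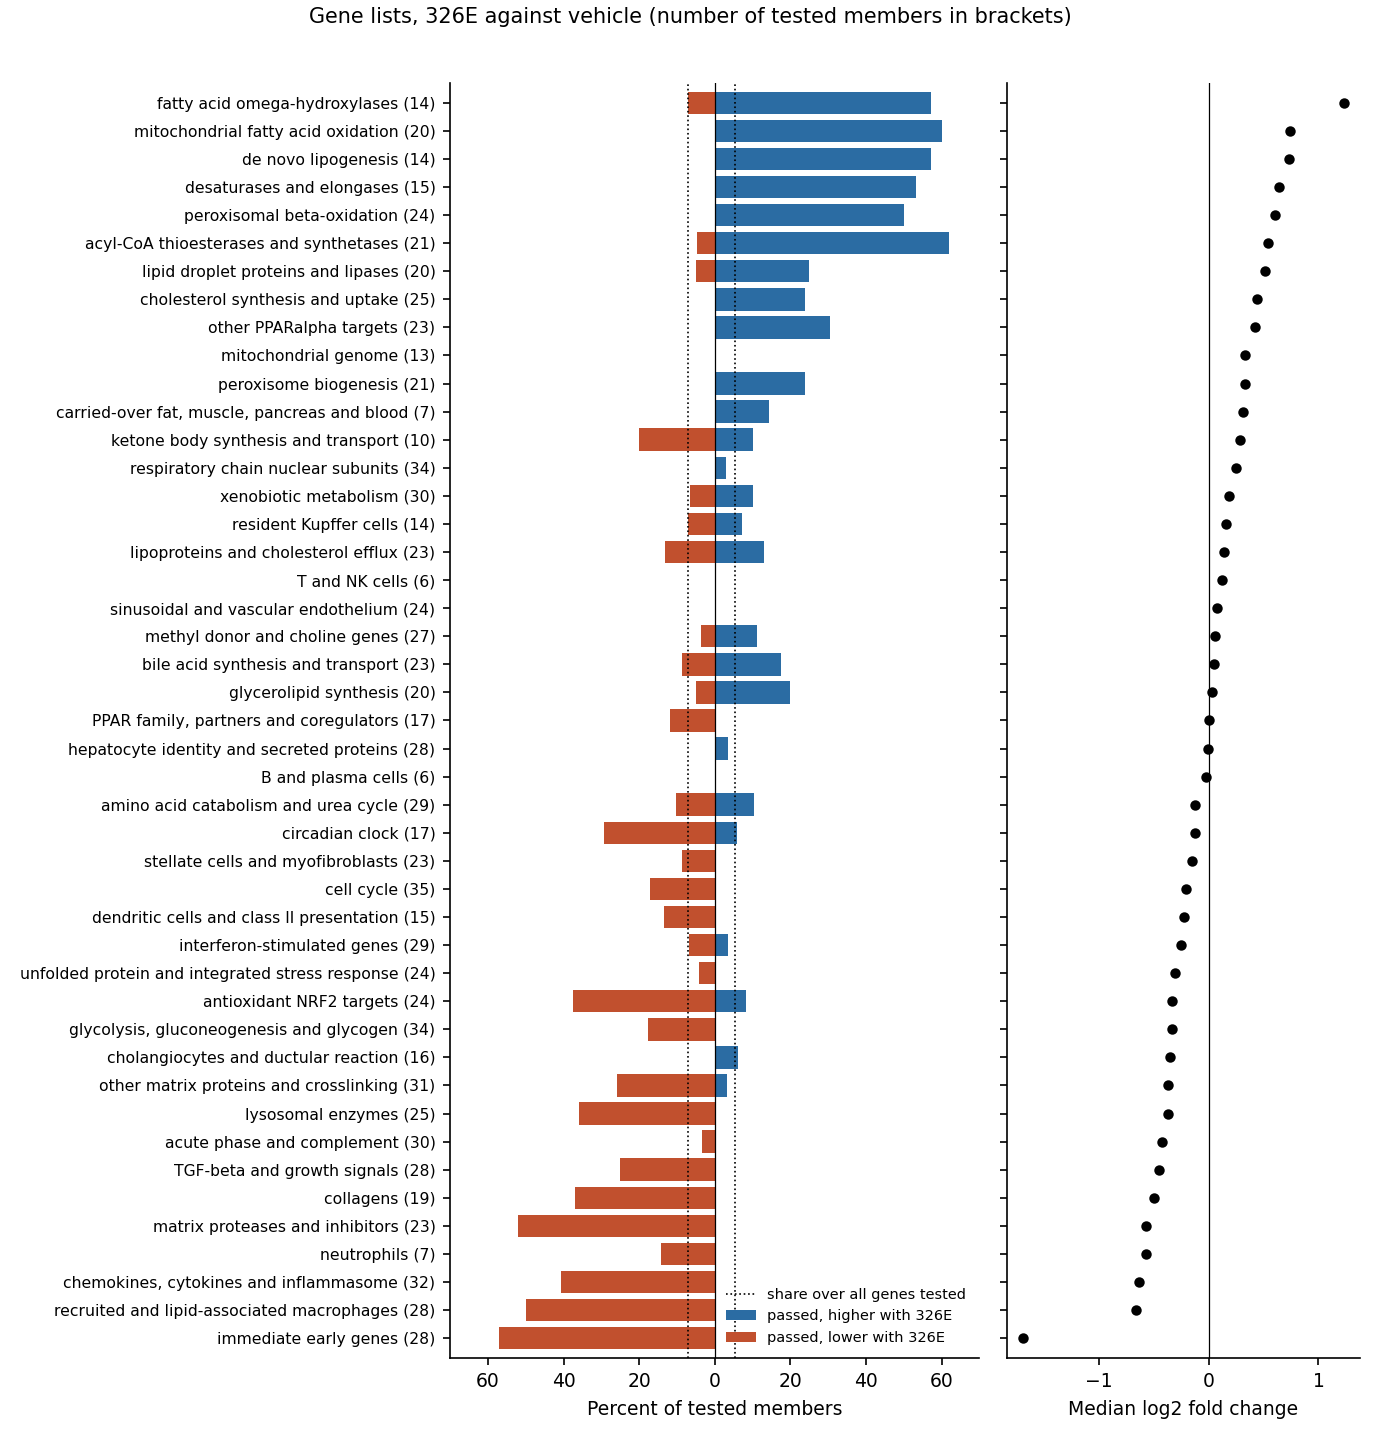
For each of the 45 gene lists, ordered by median, bars give the percent of tested members that passed as higher (right) or lower (left) with 326E, dotted lines the 5.38% and 7.13% over all genes tested, and points the median log2 fold change. The omega-hydroxylase, oxidation and lipogenesis lists stand at the top and the macrophage, chemokine and immediate early gene lists at the bottom.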

How the data were processed

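Poly(A) RNA of 9 liver libraries was measured, 3 in each of 3 groups, and the groups were taken from the sample labels. The authors deposited 1 table of FPKM values, made with HISAT2 (alignment), featureCounts (counting) and the mm10 build, per the submitters' processing notes. Versions, strand setting and annotation release are not given in the sources used here. Multiplying FPKM by gene length gave whole reads within 0.01 for every value, which yielded the depth of each library. The size used for FPKM was 1.038 to 1.192 times this depth in vehicle and 1.007 to 1.151 times in 326E libraries. In chow libraries it was 0.828 to 0.86 times the depth, and how the size was set is not known here.

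Genes that reached 0.5 FPKM in 3 or more of the 6 CDAA-HFD libraries were fitted on log2(FPKM+1) with limma 3.58.1 (lmFit, eBayes with a variance trend) in R 4.3.3, over the 9 libraries jointly, which left 6 residual degrees of freedom. The contrast was 326E minus vehicle, with Benjamini-Hochberg adjustment over the 13238 genes and a threshold of 0.05. The fit was tested on simulated data. Tables and figures used Python 3.11.15, pandas 2.3.3, numpy 2.4.6 and matplotlib 3.10.9.

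Named genes were, among called protein-coding genes whose groups did not overlap and whose mean reached 1 FPKM in a group, the 15 that rose most and the 15 that fell most, in each of 45 lists the 2 called members that moved most, a set of 40 genes fixed whatever their values, and the 5 genes of each direction with the smallest p that are not protein-coding. Some of these genes are not reported here. Other genes were chosen after their values were seen. The members and lists were chosen with earlier results of these data known. No list was tested as a set, and a list is described by its counts and median. The alternatives were other pseudocounts, filters, scalings, weights and libraries in the fit, voom on whole reads, the replicate number as a block, each library left out, and vehicle replicate 2 as the only vehicle library.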

Additional observations from a re-analysis of the deposited data

How the results depend on the processing

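The 1656 genes called fell to 1030 with no filter, when 26796 genes were tested, and to 400 with only vehicle replicate 2 kept, of which 339 were among the 1656. Leaving out 1 library in turn gave 699 to 1671 genes. The count moved by over 1.5 times when vehicle replicate 3 (954), 326E replicate 1 (1040), 326E replicate 2 (699) or 326E replicate 3 (811) was left out, where fewer samples enter the fit. The other settings gave 1241 genes with only the 6 CDAA-HFD libraries, 1340 and 1733 with pseudocounts of 0.1 and 5 FPKM, 1870 with voom, 2018 with quantile normalization and 2263 with array weights. Scaling to the total reads in genes, in place of the deposited size, gave 599 genes higher and 975 lower. With the replicate block 1106 genes were called. The labels do not tie equal numbers to a shared source, and the deviations of same-numbered libraries correlated at -0.278, 0.026 and -0.022 across genes, so the numbers were not used to pair them. None of the 130 named genes changed direction under the alternatives run, and 53 of them lost the call with only vehicle replicate 2 kept, 38 without 326E replicate 2 and 12 with the replicate block. Among list medians at least 0.1 from 0, 4 changed sign. With 1 library left out, the median of resident Kupffer cells ranged from -0.03 to 0.30, that of stellate cells from -0.23 to 0.04, that of T and NK cells from -0.01 to 0.43 and that of carried-over tissue from -0.12 to 0.50. With only vehicle replicate 2 kept, the last pair stood at -0.14 and -0.16. Medians nearer to 0 also crossed it over the alternatives run, with ranges of -0.05 to 0.07 for the PPAR family, -0.01 to 0.11 for glycerolipid synthesis, -0.15 to 0.22 for bile acids, -0.08 to 0.15 for hepatocyte identity and -0.22 to 0.20 for B and plasma cells. The cause was not tested. A single read in a gene of 2 kb was worth 0.0246 to 0.0455 FPKM, which bounds the counting precision of genes near the minimum. Of genes under 1 FPKM 7.39% were called, with a median standard error of 0.134, and of genes at 100 FPKM and above 18.8%, with 0.173, and why these shares differ was not tested.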

Other observations

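The major urinary proteins are pheromone carriers that male mouse liver secretes. Of 21 Mup genes by symbol, 19 were tested, 10 rose and 0 fell, with a median of 1.67. Their summed level was 2857, 5119 and 3640 FPKM in vehicle, 7475, 6502 and 6264 FPKM in 326E and 38738, 43910 and 45417 FPKM in chow libraries. Mup17 was at 0.989, 3.50 and 4.45 FPKM in vehicle and 335, 250 and 209 FPKM in 326E libraries (6.16 ± 0.46, limma adjusted p = 0.000295). The abundant members Mup3 (0.27 ± 0.23, adjusted p = 0.491) and Mup20 (0.27 ± 0.27, adjusted p = 0.564), named after their values were seen, did not pass. Members differed in their place beside chow: Mup20 was at 1839 to 3285 FPKM in vehicle and 2656 to 2986 FPKM in chow libraries, and Mup6 at 0.174 to 0.492 and 0.154 to 0.62 FPKM, so these groups overlapped. These genes are close copies, so the division of reads among them is uncertain. Hsd3b5, a steroid dehydrogenase of male liver, was at 0.118, 5.69 and 0.412 FPKM in vehicle, 26.7, 15.8 and 40.4 FPKM in 326E and 140 to 249 FPKM in chow libraries (3.61 ± 0.62, adjusted p = 0.00798, or 2.0 ± 0.49 and 0.0786 with vehicle replicate 2 alone).

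Among genes that are not protein-coding, Gm15441 had the largest rise of those named. It lies on chromosome 3 (96555765 to 96566801, minus strand, mm10) and was at 3.06, 2.35 and 0.519 FPKM in vehicle and 75.9, 81.8 and 79.7 FPKM in 326E libraries, with chow at 0.0921 to 0.272 FPKM (4.87 ± 0.30, limma adjusted p = 0.00011). It spans all of Txnip on the plus strand (96557957 to 96561883), a redox and glucose sensor at 27.3, 126 and 34.5 FPKM in vehicle and 72.8, 79.1 and 76.8 FPKM in 326E libraries (0.62 ± 0.62, adjusted p = 0.554). Without a stated strand setting, reads of the pair cannot be told apart where they overlap. In chow replicates 1 to 3 Txnip was at 67.6, 29.4 and 141 FPKM, beside the low Gm15441 values given above. How reads were divided between the pair was not tested. Meg3 and Rian, maternally expressed RNAs of the imprinted Dlk1 region on chromosome 12, fell together. Both passed the minimum through vehicle libraries only, so their p-values carry that selection. Meg3 was at 1.06, 1.20 and 1.51 FPKM in vehicle and 0.0751, 0.0948 and 0.0181 FPKM in 326E libraries, with chow at 0.0503 to 0.124 FPKM (-1.08 ± 0.10, adjusted p = 0.000892). Rian was at 1.37, 1.86 and 2.0 FPKM in vehicle and 0.0807, 0.0941 and 0.0863 FPKM in 326E libraries (-1.33 ± 0.12, adjusted p = 0.000736). Mirg, a further RNA of the region, was below the minimum, and the paternally expressed Rtl1 was listed at 0 in all 9 libraries.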
